A study of Mus musculus with 49 samples.

Results

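Chemically induced liver progenitors (CLiPs) were compared with dedifferentiated hepatocytes (dediHeps) across all genes, with 3 CLiP and 5 dediHep libraries taken from the 49 libraries of the deposited table of unique molecular identifier (UMI) counts. The 8 libraries are those whose sample titles name the 2 cell types in monolayer culture. Both cell types were derived from hepatocytes of wild-type C57BL/6J mice aged 10 weeks, and the labels call the source of all 8 libraries hepatocytes of the liver. The dediHeps grew as a monolayer in the standard medium with EGF at 20 ng/mL. The CLiPs grew as a monolayer in serum-free medium with 3 compounds, Y-27632 (a protein kinase inhibitor), A-83-01 (an inhibitor of the TGF-β type I receptor) and CHIR99021 (an inhibitor of glycogen synthase kinase 3, used to activate Wnt/β-catenin signaling). Medium and compounds changed together, and the labels do not give the time each library had spent in culture, so what each of them did to a gene cannot be told apart. The column names of the 5 dediHeps carry 5 different codes whose meaning is not given, and the labels do not say whether the libraries of a group came from separate mice or cultures, and the p-values therefore measure the spread between these libraries only.

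Hepatocytes that leave the liver for a culture dish lose the expression of plasma proteins and drug-metabolizing enzymes and can regain the ability to divide. CLiPs are one such state, first described as bipotent cells able to turn toward hepatocytes or bile duct cells, and dediHeps are another, described for turning toward hepatocytes or intestinal epithelium. Among the gene groups followed here, interferon-stimulated genes are switched on by interferons through transcription factors, STAT2 and IRF9 among them, which bind a short element next to the gene. Junction genes encode the claudins, cadherins and connexins that hold epithelial cells together, seal the space between them or connect their cytoplasm.

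The 3 CLiP libraries held 1936106, 3872936 and 2344442 UMI counts, and the dediHep libraries between 1631842 and 2848505, with 15171 to 17757 genes detected in a library. Levels are given as CPM, counts scaled to a common library total and corrected for library composition, and they compare a gene between libraries, not one gene with another. The 6-base UMI allows 4096 different tags per gene, and CLiP 2 and dediHep 2 reached this ceiling, so the levels of the most abundant transcripts are compressed. The counts of no pair of libraries within a group agreed within sampling noise (chi-square per degree of freedom 28.9 to 76.1 within the CLiPs and 13.9 to 50.9 within the dediHeps). Sex-linked transcripts divided both groups. Xist, the RNA that silences an X chromosome in female cells, stood at 261, 458 and 0 CPM in CLiPs 1, 2 and 3 and at 457, 0, 0, 0 and 0.507 CPM in dediHeps 1 to 5. The Y-linked gene Ddx3y stood at 0, 0 and 120.0 CPM in the CLiPs and at 0, 0, 197, 14.4 and 18.3 CPM in the dediHeps, so CLiPs 1 and 2 and dediHep 1 carried Xist without Ddx3y, CLiP 3 and dediHeps 3 to 5 carried Ddx3y, and dediHep 2 had no count of either. The study's methods describe male mice, and the labels give no sex. What part the origin of the libraries had in any difference below was not tested, but the counts or medians of the main lists are also given within the libraries that carried Xist and within those that did not.

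Of 11567 genes tested with edgeR's quasi-likelihood test, 352 (3.04%) were called different between CLiPs and dediHeps, at a Benjamini-Hochberg false discovery rate (FDR) below 0.1 with a log2 fold change above 2 or below -2. They comprised 191 genes higher in CLiPs (1.65% of the tested genes) and 161 lower in CLiPs (1.39%). At an FDR under 0.1 with any fold, 329 genes were higher and 214 lower. The median log2 fold change over all tested genes was -0.03. In 738 genes (6.38%) every CLiP library lay above every dediHep library, and in 651 (5.63%) every CLiP library lay below. Fold changes are CLiPs over dediHeps throughout and are given on the log2 scale with their standard error, followed by the edgeR FDR. In bulk RNA, a lower level can come from fewer cells of a type or from less RNA per cell, and these cannot be told apart.

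**Figure D1:**
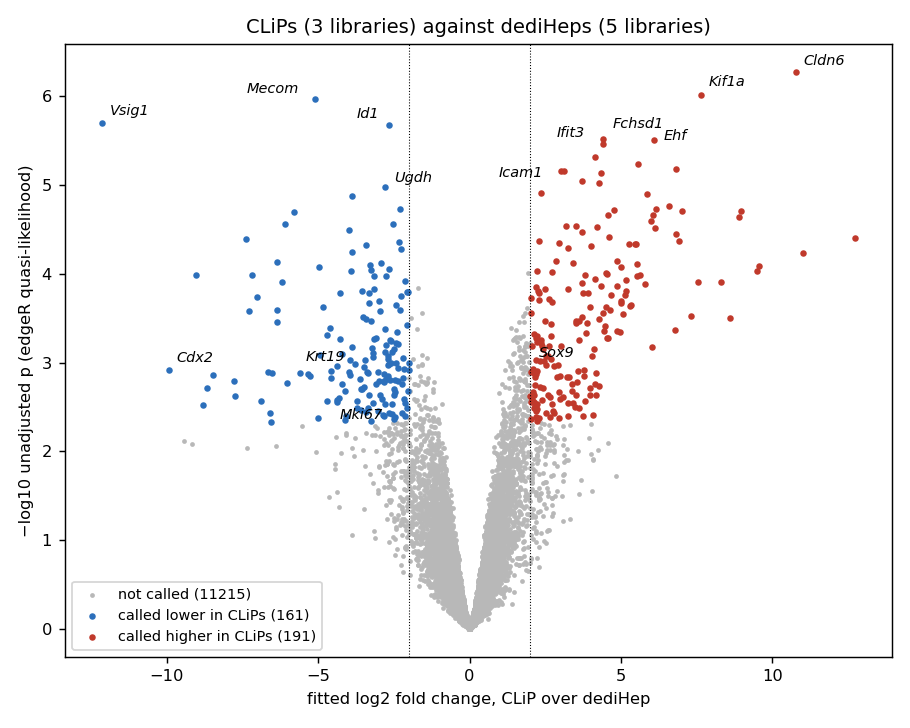
Log2 fold change of CLiPs over dediHeps (x axis) against the -log10 of the unadjusted edgeR p (y axis), 1 point per tested gene, with the 191 genes called higher in CLiPs in red, the 161 called lower in blue, the fold thresholds as dotted lines and some of the genes given in the text named. Cldn6 and Kif1a lie highest on the right and Mecom on the left, and the positions of genes with 0 to 3 counts in a group, such as Vsig1, depend on the prior count of the fit.

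The 10 named genes of smallest p that were higher in CLiPs were Cldn6, Kif1a, Fchsd1, Ehf, Ifit3, Usp18, Pamr1, Gpnmb, Icam1 and Tmem140, and in each of them the lowest CLiP library lay above the highest dediHep library. Kif1a, a motor protein best known from the axonal transport of synaptic vesicle precursors, stood at 591, 106 and 351 CPM in CLiPs 1, 2 and 3 and at 2.48, 2.15, 1.97, 0 and 2.03 CPM in dediHeps 1 to 5 (log2 fold change 7.65 ± 0.75, FDR = 0.00410). Ehf, an epithelial ETS transcription factor, stood at 200.2, 99.5 and 215 CPM in the CLiPs and at 0.620, 1.08, 0.657, 3.80 and 6.09 CPM in the dediHeps (log2 fold change 6.10 ± 0.68, FDR = 0.00504). All 3 CLiP libraries were high for both genes, and no dediHep library came near them. Fchsd1, which encodes a protein with F-BAR and SH3 domains, stood at 204, 127 and 341 CPM against 6.20, 12.4, 4.60, 13.1 and 16.2 CPM (log2 fold change 4.41 ± 0.49, FDR = 0.00504). Pamr1, a secreted protein with a protease-like domain, stood at 469, 229 and 495 CPM against 11.2, 12.4, 0.657, 8.45 and 9.64 CPM (log2 fold change 5.57 ± 0.66, FDR = 0.00597). Again no library of one group reached the range of the other. Icam1, the adhesion molecule that leukocyte integrins bind, stood at 401, 293 and 399 CPM against 46.5, 27.99, 22.7, 64.6 and 49.7 CPM (log2 fold change 3.11 ± 0.38, FDR = 0.00597). Tmem140, a transmembrane protein, stood at 128, 87.3 and 68.9 CPM against 14.3, 9.15, 9.53, 8.45 and 16.7 CPM (log2 fold change 3.02 ± 0.37, FDR = 0.00597). Neither gene overlapped between the groups. Gpnmb, a glycoprotein of lysosomes and the cell surface, had 40, 36 and 37 UMI counts in CLiPs 1, 2 and 3 and 1 count in all dediHeps, a ratio of 149 with a 95% counting interval of 26.2 to 5936. All of these calls held when any 1 of the 8 libraries was left out.

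The 10 of smallest p that were lower in CLiPs were Mecom, Vsig1, Id1, Ugdh, Wnt10a, Ndrg1, Dhh, Ugt2b34, Emp1 and Prkg2. Mecom, a zinc finger transcription factor of blood stem cells and several epithelia, stood at 1.64, 1.36 and 0.506 CPM in CLiPs 1, 2 and 3 and at 39.05, 35.5, 39.8, 35.5 and 60.9 CPM in dediHeps 1 to 5 (log2 fold change -5.09 ± 0.50, FDR = 0.00410). Vsig1, an adhesion protein known from gastric epithelium, had no count in the CLiPs and stood at 150.0, 156, 482, 144 and 235 CPM in the dediHeps, at least 709-fold lower in CLiPs when 3 counts over the group are taken as the floor (edgeR FDR = 0.00488). All 5 dediHep libraries expressed both genes. Ugdh, which makes the UDP-glucuronic acid used in glucuronidation, stood at 40.9, 94.7 and 59.7 CPM against 459.9, 537, 434, 391 and 425 CPM (log2 fold change -2.78 ± 0.35, FDR = 0.00718). Emp1, an epithelial membrane protein, stood at 1.09, 8.82 and 1.52 CPM against 405, 266, 492, 107 and 182 CPM (log2 fold change -6.09 ± 0.86, FDR = 0.00947). Prkg2, a cGMP-dependent protein kinase, stood at 2.73, 5.65 and 1.52 CPM against 24.2, 64.05, 59.5, 56.2 and 73.5 CPM (log2 fold change -3.98 ± 0.57, FDR = 0.00972). Every CLiP library lay below every dediHep library in all of the 10 genes, and all 10 calls held without any 1 library.

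Interferon-stimulated genes were the largest group of related genes to be called higher in CLiPs among the lists followed. Of 100 listed genes, 68 passed the filter on low counts. Of these, 21 (30.9%, against 1.65% of all tested genes) were higher in CLiPs and none was lower, and 60 of the 68 had a fold change above 0. Their median log2 fold change was 1.65, against -0.03 over all tested genes. By rank of the libraries, 34 of the 68 had no overlap with CLiPs above, where 6.38% of all tested genes did, and none had CLiPs below. Summed over the list, the level was 8539, 7929 and 8404 CPM in CLiPs 1, 2 and 3 and 4009.7, 3453, 4296, 5141 and 4618 CPM in dediHeps 1 to 5, so that every CLiP library exceeded every dediHep library.

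Of the 21 genes called, 16 had an entry among the RefSeq promoters (mouse assembly GRCm38.p6, from 250 bases before to 50 bases after each start site), and 11 of these 16 (68.8%) held the core of an interferon-stimulated response element, searched as GAAA, any 2 bases and again GAAA, on either strand, where the other strand reads TTTC, 2 bases and TTTC. Overlapping matches were counted. Among the 11, Ifit3 and Ifit3b had the same sequence around their matches, as had Apol9a and Apol9b. The matches of Ifitm3 did not lie wholly upstream of the start site, so the 11 are not all separate upstream elements. Among the tested members of the list that were not called, 15 of 40 promoters (37.5%) held it. The share was 300 of 8295 (3.62%) over the promoters of all tested genes, 9 of 117 (7.69%) over the genes called higher in CLiPs outside the list and 9 of 116 (7.76%) over the genes called lower. The stretches around the matches of 6 called genes are shown from 20 bases before the first match to 20 bases after the last, 5′ to 3′ on the strand of the gene and upstream of the start site, with the matches in capitals. They lie at chr19:34583353-34583436 (Ifit3, plus strand), chr19:34640765-34640833 (Ifit1, plus strand), chr12:26456543-26456592 (Rsad2, minus strand), chr3:142530263-142530312 (Gbp7, plus strand), chr7:104465200-104465249 (Trim30a, minus strand) and chr11:48992294-48992343 (Tgtp1, minus strand). The 84 bases of the Ifit3 window occur letter for letter in front of Ifit3b, at chr19:34607749-34607832 on the plus strand. These are descriptions of the letters, and no binding was measured.
Ifit3: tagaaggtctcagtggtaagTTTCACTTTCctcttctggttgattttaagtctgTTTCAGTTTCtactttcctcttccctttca
Ifit1: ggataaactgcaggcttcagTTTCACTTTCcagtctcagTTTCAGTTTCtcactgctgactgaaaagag
Rsad2: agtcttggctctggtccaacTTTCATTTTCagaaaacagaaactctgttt
Gbp7: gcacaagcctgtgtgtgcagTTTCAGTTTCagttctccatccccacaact
Trim30a: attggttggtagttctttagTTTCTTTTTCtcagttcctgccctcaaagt
Tgtp1: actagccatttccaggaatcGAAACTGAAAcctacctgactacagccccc

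The pairs of matches in front of Ifit3 and Ifit1 belong to genes that encode antiviral proteins binding foreign RNA or translation factors. Ifit1 stood at 112, 169 and 60.8 CPM in CLiPs 1, 2 and 3 and at 3.10, 1.08, 10.8, 7.60 and 7.61 CPM in dediHeps 1 to 5 (log2 fold change 4.19 ± 0.60, FDR = 0.00947). Ifit3 stood at 82.9, 55.4 and 22.3 CPM against 1.86, 3.77, 2.96, 1.69 and 2.03 CPM (log2 fold change 4.41 ± 0.49, FDR = 0.00504). Ifit3b stood at 69.3, 74.4 and 23.8 CPM against 3.72, 4.84, 6.24, 2.96 and 3.04 CPM (log2 fold change 3.72 ± 0.46, FDR = 0.00678). CLiP 3 was the lowest CLiP library for all 3 genes and still lay above every dediHep library. Ifit3 and Ifit3b are near-identical neighbors on chromosome 19, and how reads were divided between them is uncertain. Rsad2, the antiviral enzyme viperin, stood at 24.01, 20.1 and 9.62 CPM against 0, 0, 0.329, 1.27 and 0 CPM (log2 fold change 5.46 ± 0.82, FDR = 0.0108). Usp18, which removes ISG15 from proteins and dampens the interferon receptor, stood at 33.8, 26.7 and 21.8 CPM against 1.24, 1.08, 0.657, 2.53 and 2.03 CPM (log2 fold change 4.15 ± 0.48, FDR = 0.00597). Rtp4, an interferon-induced chaperone of receptors, stood at 31.1, 60.4 and 17.7 CPM against 1.24, 1.08, 1.31, 2.11 and 3.04 CPM (log2 fold change 4.34 ± 0.53, FDR = 0.00597). The groups did not overlap in any of the 3 genes.

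The called members also included GTPases and some transcription factors of the pathway. Iigp1, Gbp7, Stat2, Rsad2 and Ifitm3, and the uncalled Irf9 and Irf1, were singled out after their values were seen. Iigp1, a GTPase acting on the vacuoles of intracellular parasites, stood at 55.7, 99.2 and 119 CPM in CLiPs 1, 2 and 3 and at 0.620, 9.69, 2.96, 8.03 and 6.59 CPM in dediHeps 1 to 5 (log2 fold change 4.02 ± 0.61, FDR = 0.0108). Gbp7, a guanylate-binding protein, stood at 67.7, 63.5 and 28.9 CPM against 4.34, 2.15, 5.92, 2.11 and 10.1 CPM (log2 fold change 3.42 ± 0.54, FDR = 0.0144). Oasl2, of the oligoadenylate synthetase family, stood at 129, 119.6 and 14.7 CPM against 1.24, 1.08, 3.94, 5.07 and 7.10 CPM (log2 fold change 4.53 ± 0.74, FDR = 0.0150). Every CLiP library was above every dediHep library in these genes, with CLiP 3 highest for Iigp1 and lowest for Oasl2. Stat2, a transcription factor that carries the interferon signal, stood at 133, 75.5 and 197 CPM against 19.8, 25.3, 15.8, 39.3 and 47.7 CPM (log2 fold change 2.19 ± 0.44, FDR = 0.0342). Irf7, a transcription factor that amplifies type I interferon production, stood at 31.6, 18.1 and 15.2 CPM against 2.48, 2.15, 4.27, 6.76 and 5.07 CPM (log2 fold change 2.35 ± 0.48, FDR = 0.0345). Stat2 and Irf7 were separated between the groups as well, but Stat2 lost its call without CLiP 1 or CLiP 3 and Irf7 without CLiP 1. Irf9, which binds DNA together with Stat2, stood at 113, 107 and 189.9 CPM against 27.3, 32.3, 41.1, 52.4 and 61.9 CPM and stayed below the fold threshold (log2 fold change 1.66 ± 0.36, FDR = 0.0429).

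The calls of 10 of the 21 interferon-stimulated genes held without any 1 library, among them those of Ifit3, Usp18, Rtp4, Ifit3b, Ifit1, Rsad2, Iigp1, Gbp7 and Oasl2. Another 10 were lost without CLiP 1, 4 without CLiP 2 and 3 without CLiP 3. Trim30a stood at 64.4, 81.4 and 5.57 CPM in CLiPs 1, 2 and 3 and at 0, 0, 0, 0.845 and 1.01 CPM in dediHeps 1 to 5 (log2 fold change 6.90 ± 1.02, FDR = 0.0108), and was lost without CLiP 2, dediHep 3 or dediHep 4. Ifitm3, a membrane protein that blocks viral entry, stood at 78.6, 50.4 and 186 CPM against 2.48, 0.538, 2.301, 16.1 and 0.507 CPM (log2 fold change 4.53 ± 0.92, FDR = 0.0343) and was lost without CLiP 1. Parp12, Phf11d, Tgtp1, Cmpk2, Parp14 and the near-identical pair Apol9a and Apol9b were likewise lost without CLiP 1, and the counts of the Apol9 pair are uncertain. The members called numbered 11 without CLiP 1, 18 without CLiP 2 and 31 without CLiP 3. Within the libraries that carried Xist (CLiPs 1 and 2 against dediHep 1, a lone library that the fit takes to vary like the CLiPs) 35 members were called and the median of the list was 1.98, and within those that did not (CLiP 3, likewise alone, against dediHeps 2 to 5) 11 were called and the median was 1.07. With Xist status as a term in the model 23 were called.

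Several well-known members did not pass. Isg15, a ubiquitin-like protein, stood at 8.18, 50.9 and 2.53 CPM in CLiPs 1, 2 and 3 and at 0.620, 0, 0.329, 0.422 and 5.07 CPM in dediHeps 1 to 5 (log2 fold change 4.01 ± 1.13, FDR = 0.102). CLiP 2 was by far the highest, and CLiP 3 lay below dediHep 5. Bst2, the protein tetherin, stood at 85.7, 162 and 23.8 CPM against 31.6, 26.9, 30.9, 21.97 and 15.2 CPM (log2 fold change 1.84 ± 0.52, FDR = 0.103), with CLiP 3 below dediHeps 1 to 3. Irf1 stood at 113, 118 and 78.5 CPM against 102, 109, 105, 66.7 and 158 CPM (log2 fold change -0.07 ± 0.34, FDR = 0.943) and its groups overlapped throughout. Of 19 genes of antigen presentation by MHC class I and II, 7 were tested and none was called, all 7 fold changes lying above 0 with a median of 1.12. B2m, the light chain of MHC class I, stood at 715, 837 and 553 CPM against 683, 240.0, 227, 229.8 and 240.4 CPM (log2 fold change 1.12 ± 0.41, FDR = 0.203). The dediHep 1 library, which carried Xist, reached the CLiP range for B2m, and dediHeps 2 to 5 did not. The B2m count in CLiP 2, 3702, was close to the UMI ceiling, so its level there is compressed.

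**Figure D2:**
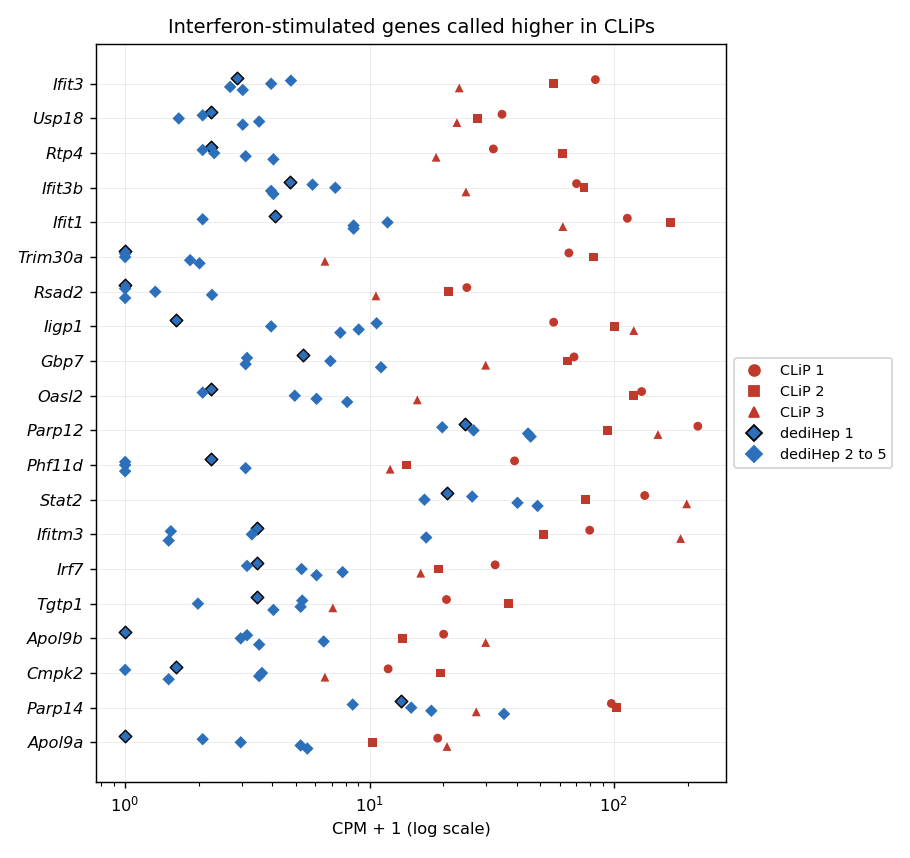
CPM plus 1 on a log axis (x axis) of 20 of the 21 interferon-stimulated genes called higher (y axis), 1 point per library, with CLiPs 1 to 3 in red and dediHeps 1 to 5 in blue. In Ifit1 the CLiP points run from 60.8 to 169 CPM and the dediHep points from 1.08 to 10.8 CPM, and in Parp14 the CLiP 3 point lies below dediHep 5.

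Of 23 genes of interferons, their receptors and the sensors that induce them, 14 were tested and 7 had no count in any of the 8 libraries. Tmem173 (STING, which signals from cytosolic DNA) was the only one called. It stood at 82.9, 84.3 and 32.4 CPM in CLiPs 1, 2 and 3 and at 1.24, 3.77, 0, 8.87 and 1.01 CPM in dediHeps 1 to 5 (log2 fold change 4.45 ± 0.88, FDR = 0.0307), and the call was lost without CLiP 1. The list's median was 0.27. Ifnb1, the gene of interferon-β, had 0 counts in all 8 libraries, which allows no more than 3 counts of the total in each, and this limit covers counting error only. Ifnar1, a chain of the type I interferon receptor, stood at 12.004, 5.43 and 13.7 CPM against 4.34, 7.53, 2.63, 11.4 and 5.07 CPM (log2 fold change 0.72 ± 0.56, FDR = 0.547). Ifnar2, the other chain, stood at 32.2, 28.5 and 49.1 CPM against 14.9, 12.9, 7.56, 16.5 and 14.7 CPM (log2 fold change 1.46 ± 0.37, FDR = 0.0717). Ifnar2 did not overlap between the groups but stayed under the fold threshold.

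Set beside the other conditions on one scale for all 49 libraries, the summed level of the interferon list was 7986 ± 129.6 CPM in CLiPs (mean ± SD), 4036 ± 673 CPM in dediHeps, 9726 ± 623 CPM in freshly isolated hepatocytes and 13413 ± 1093 CPM in hepatocytes plated for 3 h. Hepatocytes kept in culture averaged 4109 CPM after 1 day, 3986 CPM after 1 week and 3524 CPM after 2 weeks. The Ifit genes followed another order. Ifit1 averaged 110.4 ± 54.4 CPM in CLiPs and 5.70 ± 3.73 CPM in dediHeps, 16.7 ± 6.23 CPM in fresh hepatocytes and 3.84 ± 2.51 CPM after 1 week. Ifit3 averaged 51.4 ± 28.4 CPM in CLiPs, 14.5 ± 8.89 CPM in fresh hepatocytes and 3.40 ± 0.545 CPM after 1 week. Both genes thus had their highest mean in CLiPs among the 16 conditions, which were not tested against each other.

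Junction genes differed little as a group, with 1 large exception. Of 42 tight junction genes 27 were tested, 1 was higher in CLiPs and none was lower, with a median log2 fold change of -0.10. The exception was Cldn6 (chromosome 17, chr17:23679249-23682446 on the plus strand, GRCm38), a claudin of embryonic epithelia. It stood at 444, 276 and 43.04 CPM in CLiPs 1, 2 and 3 and at 0, 0, 0, 0 and 0.507 CPM in dediHeps 1 to 5. That is 814, 1221 and 85 UMI counts against 1 count in all 5 dediHeps, a ratio of 2795 with a 95% counting interval of 501 to 110456, with an edgeR FDR of 0.00410. All CLiP libraries expressed Cldn6, CLiP 3 the least, and the call held without any 1 library. On the scale of the 49 libraries Cldn6 averaged 244 ± 189.5 CPM in CLiPs, 11.4 ± 1.83 CPM in hepatocytes after 4 days, 88.5 ± 43.99 CPM after 1 week and 84.05 ± 22.5 CPM after 2 weeks. In fresh hepatocytes it averaged 0 CPM, and in dediHeps 0.0965 ± 0.216 CPM.

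Of the 27 tested tight junction genes, 3, Cldn6 among them, had all CLiPs above all dediHeps and 3 had all CLiPs below. Over all tested genes the shares were 6.38% and 5.63%. Cldn2, Cldn3, Ocln and Tjp1 overlapped between the groups. Cldn2, a pore-forming claudin of the liver, stood at 759.5, 466 and 568 CPM in CLiPs 1, 2 and 3 and at 477, 952, 919.6, 569 and 779 CPM in dediHeps 1 to 5 (log2 fold change -0.31 ± 0.31, FDR = 0.652). Cldn3, a sealing claudin, stood at 52.9, 13.1 and 53.7 CPM against 1.24, 0.538, 54.9, 43.1 and 0 CPM (log2 fold change 0.96 ± 1.28, FDR = 0.740). All 3 CLiP libraries and dediHeps 3 and 4 had Cldn3, while dediHeps 1, 2 and 5 were near 0. Ocln, occludin, stood at 92.8, 74.6 and 91.1 CPM against 103, 111, 389, 143 and 84.2 CPM (log2 fold change -0.95 ± 0.52, FDR = 0.382). Tjp1, the scaffold protein ZO-1, stood at 7.64, 18.99 and 5.06 CPM against 172, 14.5, 40.8, 10.1 and 10.1 CPM (log2 fold change -2.18 ± 1.04, FDR = 0.318). A single library, dediHep 1, held most of the Tjp1 signal of its group.

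Of 30 genes of adherens junctions and desmosomes 24 were tested and none was called at the threshold, with a median of 0.22. Cdh1 (E-cadherin) stood at 765, 611 and 334 CPM in CLiPs 1, 2 and 3 and at 1289, 1439, 786, 855 and 774 CPM in dediHeps 1 to 5 (log2 fold change -0.85 ± 0.36, FDR = 0.261). Every CLiP library lay below every dediHep library for Cdh1, by less than the threshold and with a spread that left it uncalled. Desmoplakin, Dsp, stood at 513, 222 and 1065 CPM against 315, 459, 369, 288 and 569 CPM (log2 fold change 0.58 ± 0.45, FDR = 0.545). Of 15 gap junction genes 6 were tested and 1 was lower. Gjb1 (connexin 32), the main connexin of hepatocytes, stood at 8.18, 18.8 and 339 CPM against 7.44, 24.2, 72.96, 68.01 and 81.1 CPM (log2 fold change 1.25 ± 1.04, FDR = 0.575). Gjb2 (connexin 26), its partner in hepatocytes, stood at 1.09, 3.62 and 111 CPM against 1.86, 3.77, 10.8, 19.01 and 1.01 CPM (log2 fold change 2.35 ± 1.22, FDR = 0.362). CLiP 3 was high for both hepatocyte connexins, and CLiPs 1 and 2 lay at or below the level of most dediHeps. Over the 3 junction lists together, 2 genes were called, where 3.04% of all tested genes were. Within the libraries with Xist, where dediHep 1 stood alone, the medians of the 3 lists in the order given were -0.22, -0.05 and -1.56. Within those without, where CLiP 3 stood alone, the medians were 0.01, 0.34 and -0.97.

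**Figure D3:**
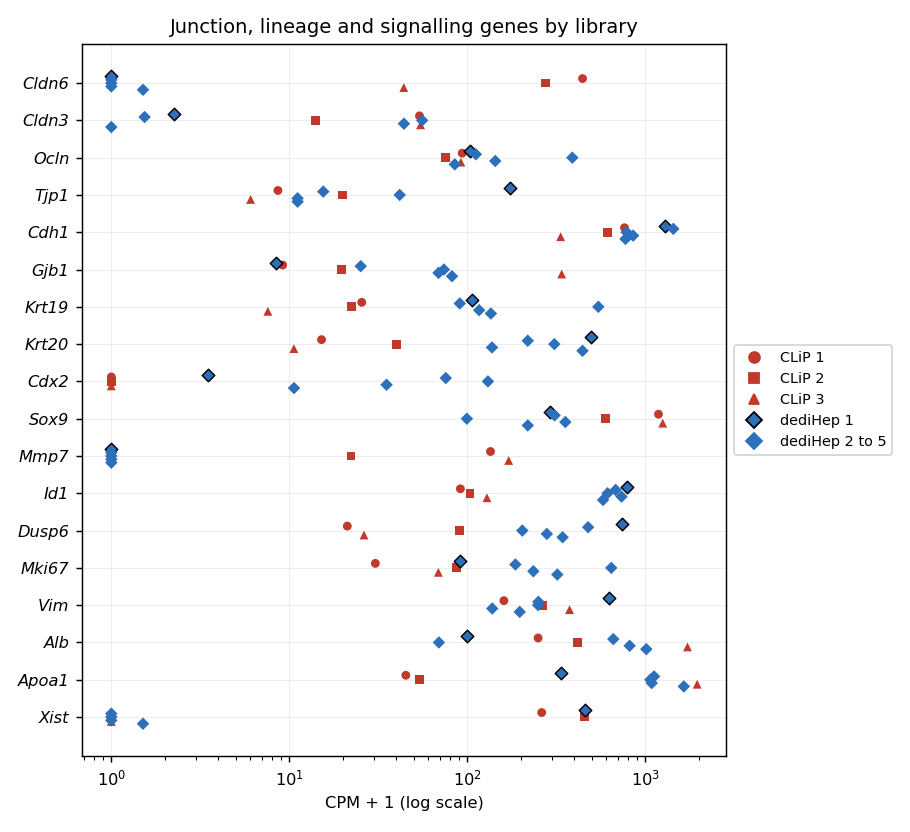
CPM plus 1 on a log axis (x axis) of named genes (y axis), 1 point per library, with CLiPs 1 to 3 in red and dediHeps 1 to 5 in blue. Cldn6 runs from 43.04 to 444 CPM in CLiPs with at most 0.507 CPM in a dediHep library, and Gjb1 reaches 339 CPM in CLiP 3 only.

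Among signaling genes that respond to BMP, Notch and hedgehog ligands, or encode those ligands, 7 were lower in CLiPs. Of 29 listed genes 16 were tested and none was higher. The 7 were 43.8% of the 16, where 1.39% of all tested genes were called lower. Of the 16 fold changes 15 lay below 0, with a median of -2.46. Id1, a direct target of BMP signaling that inhibits differentiation factors, stood at 90.6, 103 and 128 CPM in CLiPs 1, 2 and 3 and at 792, 682, 614, 736 and 579 CPM in dediHeps 1 to 5 (log2 fold change -2.67 ± 0.28, FDR = 0.00488). Dhh, a hedgehog ligand, stood at 0.546, 0.904 and 0 CPM against 31.6, 18.3, 22.3, 29.6 and 68.97 CPM (log2 fold change -5.80 ± 0.79, FDR = 0.00866). Jag2, a Notch ligand, stood at 3.82, 4.75 and 3.04 CPM against 16.1, 25.3, 44.7, 32.1 and 30.4 CPM (log2 fold change -2.91 ± 0.46, FDR = 0.0144). The groups were fully separated in these 3 genes, and their calls held without any 1 library. Bmp7, a BMP ligand, stood at 1.64, 2.71 and 1.52 CPM against 24.8, 27.99, 6.90, 27.04 and 129 CPM (log2 fold change -4.37 ± 0.98, FDR = 0.0479) and was lost without CLiP 1 or CLiP 3. Id3, also a BMP target, stood at 6.55, 53.4 and 9.62 CPM against 489.7, 157, 293, 169 and 87.2 CPM (log2 fold change -3.33 ± 0.83, FDR = 0.0683) and was lost without CLiP 1, CLiP 3, dediHep 2 or dediHep 3. Hey1, a target of Notch, had 2 UMI counts in the CLiPs and stood at 12.4, 9.69, 4.27, 17.7 and 5.07 CPM in the dediHeps, a ratio of 39.1 with a 95% counting interval of 10.5 to 327, and was lost without CLiP 1. Bmp4 stood at 8.73, 31.4 and 42.5 CPM against 48.97, 36.1, 42.7, 82.4 and 16.7 CPM (log2 fold change -0.72 ± 0.58, FDR = 0.571), and its groups overlapped. The list's median was -2.35 within the libraries with Xist and -1.94 within those without.

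Some genes that follow growth factor signaling through ERK were also lower in CLiPs. Of 34 targets of ERK and early response genes 31 were tested. Of these, 7 (22.6%, against 1.39% of all tested genes) were lower and none was higher. Below 0 lay 28 fold changes, with a median of -1.41. Areg, the EGF receptor ligand amphiregulin, had 2 counts in the CLiPs and stood at 61.4, 36.1, 53.9, 45.6 and 3.04 CPM in dediHeps 1 to 5, a ratio of 168 with a 95% counting interval of 46.3 to 1395 (edgeR FDR = 0.0150). Dusp6, a phosphatase that ERK induces and that switches ERK off, stood at 20.2, 89.97 and 25.3 CPM in CLiPs 1, 2 and 3 and at 744, 477, 203, 279 and 343 CPM in the dediHeps (log2 fold change -3.16 ± 0.64, FDR = 0.0345). Phlda1, another ERK-induced gene, stood at 15.3, 37.5 and 28.4 CPM against 503, 209, 75.3, 179 and 202 CPM (log2 fold change -3.10 ± 0.63, FDR = 0.0342). Areg held without any 1 library, while Dusp5, Fosl1, Phlda1, Dusp6, Etv4 and Spry1 lost their calls without CLiP 1. The list's median was -2.48 within the libraries with Xist, and -0.68, with 11 of 31 fold changes above 0, within those without. The immediate early genes split the CLiPs. Fos stood at 10.4, 4.30 and 426 CPM against 606, 184, 223, 170.2 and 152 CPM (log2 fold change -0.86 ± 1.17, FDR = 0.744), and Egr1 at 21.8, 45.9 and 329 CPM against 607, 364, 283, 307 and 187 CPM (log2 fold change -1.41 ± 0.78, FDR = 0.391). CLiP 3 was within the dediHep range for both genes and CLiPs 1 and 2 were far below it.

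In the pathways that the compounds act on, calls went in both directions, and 3.04% of all tested genes were called in either direction. Of 37 TGF-β response genes 25 were tested, 2 (Col4a2 and Tgfb2) were higher and 3 (Ltbp1 and Smad6 among them) were lower, with a median of -0.68. Ltbp1, which binds latent TGF-β in the matrix, stood at 2.18, 1.13 and 1.01 CPM in CLiPs 1, 2 and 3 and at 38.4, 12.4, 20.7, 20.3 and 14.2 CPM in dediHeps 1 to 5 (log2 fold change -3.87 ± 0.59, FDR = 0.0120), and held without any 1 library. Col4a2, a basement membrane collagen chain on the same list, went the other way, at 366, 243 and 240.5 CPM against 61.4, 41.4, 93.3, 68.01 and 35.5 CPM (log2 fold change 2.24 ± 0.36, FDR = 0.0150). Smad7, the feedback inhibitor of the pathway, stood at 6.55, 5.20 and 5.06 CPM against 46.5, 27.4, 7.23, 13.5 and 17.8 CPM (log2 fold change -1.99 ± 0.61, FDR = 0.131). CLiPs lay below dediHeps in every library for Ltbp1 and Smad7, but Smad7 was not called. Tgfb2, a TGF-β ligand, stood at 253, 245 and 219.7 CPM against 47.7, 10.8, 1.31, 35.1 and 6.59 CPM (log2 fold change 3.57 ± 0.81, FDR = 0.0507) and was lost without CLiP 1 or dediHep 2.

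Of 39 Wnt response genes 18 were tested, with a median of -0.20. Of these, 1 was higher and 1 lower (5.56% each), against 1.65% and 1.39% of all tested genes. Axin2, a standard readout of Wnt/β-catenin signaling, had 2, 26 and 2 UMI counts in CLiPs 1, 2 and 3 and 3 counts, all in dediHep 1, in the dediHeps, a ratio of 13.2 with a 95% counting interval of 4.10 to 67.5, and was too low to be tested. Wnt10a, a ligand that the list also held, stood at 9.82, 11.3 and 9.11 CPM against 208, 69.97, 180.4, 87.02 and 202 CPM (log2 fold change -3.88 ± 0.50, FDR = 0.00776), with all CLiPs below all dediHeps. Rgn, expressed around the central vein of the liver, stood at 8.73, 11.5 and 169 CPM against 1.86, 0.538, 7.56, 4.22 and 2.54 CPM (log2 fold change 4.15 ± 0.99, FDR = 0.0582), with most of it in CLiP 3, and the call was lost without CLiP 3, dediHep 2 or dediHep 5. Of 45 genes of the actin cytoskeleton and its regulators 41 were tested and only Myl9 was higher, with none lower and a median of -0.16. Myl9, a myosin light chain, had 12, 33 and 27 counts in CLiPs 1, 2 and 3 and 1 count in the dediHeps, a ratio of 94.9 with a 95% counting interval of 16.5 to 3801. Of 33 YAP response genes 30 were tested, 2 (Rbms3 and Tgfb2) were higher and 1 (Foxf2) was lower, with a median of -0.19. Ccn1 stood at 42.01, 120.3 and 27.8 CPM against 1537, 76.4, 79.2, 30.4 and 48.7 CPM (log2 fold change -2.47 ± 1.35, FDR = 0.384) and Ccn2 at 27.8, 33.005 and 21.3 CPM against 699, 41.98, 10.8, 12.7 and 34.99 CPM (log2 fold change -2.54 ± 1.37, FDR = 0.379), both standard YAP targets. The means of the dediHeps for both rested on dediHep 1, and the other 4 libraries overlapped with the CLiPs.

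**Figure D4:**
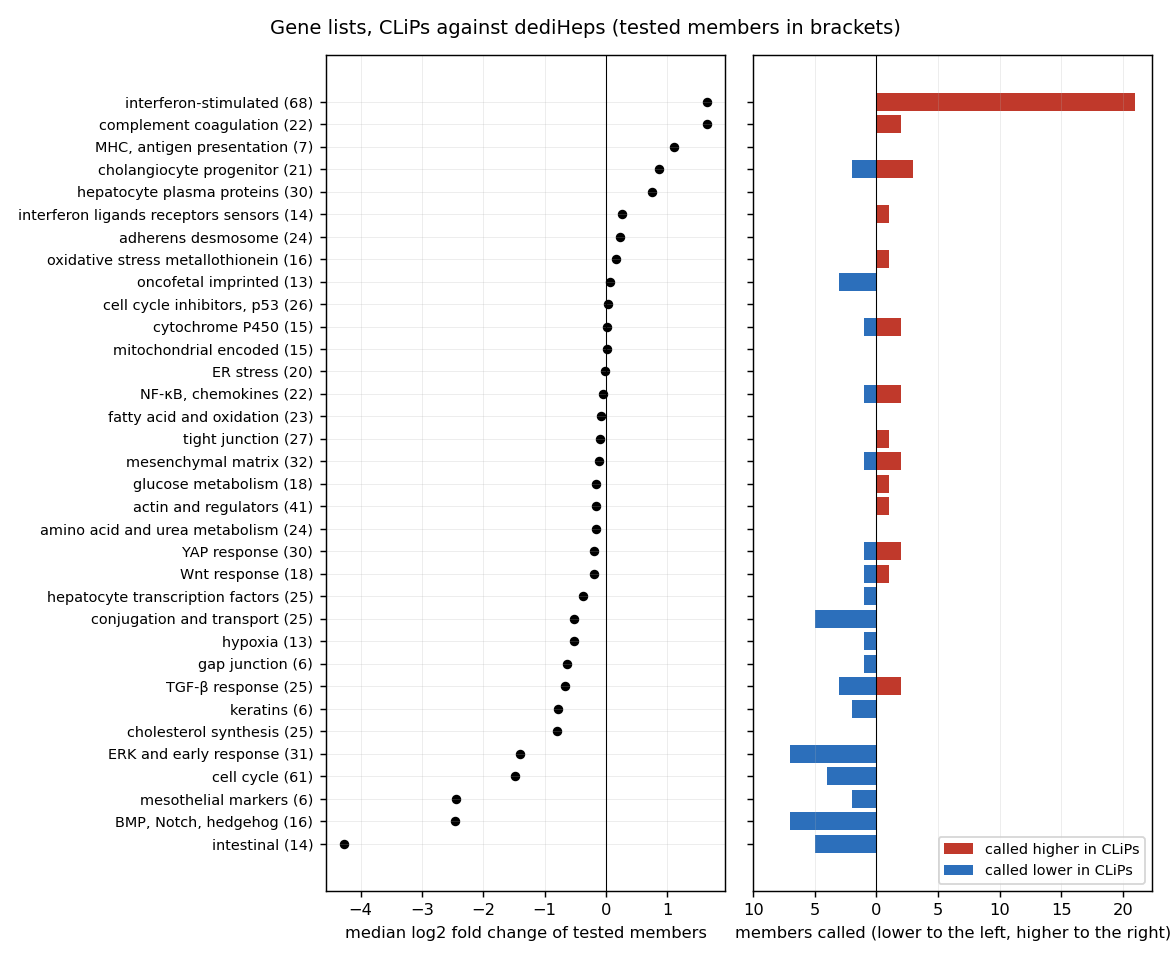
For each gene list (y axis), the median log2 fold change of the tested members (left, x axis, with a line at 0) and the numbers of tested members called higher (red) and lower (blue) in CLiPs (right, x axis), for lists with at least 6 tested members. The interferon-stimulated list has 21 members higher and a median of 1.65, and the list of BMP, Notch and hedgehog genes has 7 lower and a median of -2.46.

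Some intestinal genes were lower in CLiPs. Of 40 listed genes 14 were tested. Of these, 5 (35.7%, against 1.39% of all tested genes) were lower and none was higher, with a median of -4.27 and 13 of 14 below 0. Cdx2, the transcription factor that sets intestinal identity, had no count in the CLiPs and stood at 2.48, 74.8, 129.8, 34.2 and 9.64 CPM in dediHeps 1 to 5, at least 161-fold lower in CLiPs (edgeR FDR = 0.0504), and was lost without CLiP 1 or dediHep 2. Lgals2, a galectin of the gut epithelium, stood at 1.09, 2.49 and 2.03 CPM in CLiPs 1, 2 and 3 and at 30.4, 215, 711, 476 and 228 CPM in the dediHeps (log2 fold change -7.37 ± 1.09, FDR = 0.0108). Krt20, a keratin of differentiated intestinal cells, stood at 14.2, 38.9 and 9.62 CPM against 497, 218, 308, 137 and 444 CPM (log2 fold change -3.91 ± 0.64, FDR = 0.0150). Both held without any 1 library, and both spread widely among the dediHeps, with dediHep 1 the lowest for Cdx2 and Lgals2. Sprr1a, a small proline-rich protein, stood at 1.09, 7.01 and 3.54 CPM against 117, 292, 27.9, 49.004 and 63.4 CPM (log2 fold change -4.71 ± 0.94, FDR = 0.0331) and was lost without CLiP 1. Vil1, the microvillus protein villin, stood at 32.7, 38.2 and 119 CPM against 35.95, 188, 323, 196 and 193 CPM (log2 fold change -1.57 ± 0.67, FDR = 0.268), with overlap. Within the libraries with Xist 9 of the genes had a value, 5 of them above 0, and their median was 0.01, and within those without Xist the median was -4.90, a difference that was not tested.

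Bile duct and progenitor genes moved in both directions. Of 29 listed genes 21 were tested, with a median of 0.87. Of these, 3 (14.3%) were higher and 2 (9.52%) lower, against 1.65% and 1.39% of all tested genes. All CLiPs lay above all dediHeps in 8 of the 21 and below them in 2, where 6.38% and 5.63% of all tested genes did. Mmp7, a protease of injured bile ducts, had 246, 94 and 336 counts in CLiPs 1, 2 and 3 and none in the dediHeps, at least 297-fold higher (edgeR FDR = 0.0120). Dcdc2a, a protein of cilia in bile duct cells, stood at 114, 153 and 51.1 CPM in the CLiPs and at 4.96, 4.84, 0, 0.422 and 0 CPM in dediHeps 1 to 5 (log2 fold change 5.80 ± 0.98, FDR = 0.0168). Both held without any 1 library. Lcn2, an iron-binding protein of stressed epithelium, stood at 1414, 901 and 1981 CPM against 115, 133, 33.2, 504 and 191 CPM (log2 fold change 2.87 ± 0.67, FDR = 0.0545), and was lost without CLiP 1, CLiP 3, dediHep 2 or dediHep 5. Its CLiP counts came close to the UMI ceiling in CLiPs 2 and 3. Sox9, a transcription factor of bile ducts and progenitors, stood at 1188, 599 and 1255 CPM against 292, 309, 98.6, 355 and 218 CPM (log2 fold change 1.99 ± 0.41, FDR = 0.0362). The groups did not overlap for Sox9, which stopped just short of the fold threshold. Its counts were 2177, 2650 and 2478 in the CLiPs, of 4096 possible tags, and 300 to 841 in the dediHeps. Its CLiP levels and its fold change are therefore compressed by the UMI ceiling. Krt19 (CK19), a keratin of bile ducts, was lower in CLiPs at 24.6, 21.5 and 6.58 CPM against 105, 89.9, 545, 116 and 135 CPM (log2 fold change -3.49 ± 0.78, FDR = 0.0485), and was lost without CLiP 1 or CLiP 3. Tspan8, a tetraspanin, stood at 28.9, 80.03 and 19.7 CPM against 454, 213, 320.1, 124 and 298 CPM (log2 fold change -2.70 ± 0.58, FDR = 0.0429) and was lost without CLiP 1. Epcam and Prom1 overlapped between the groups, Epcam at 20.2, 10.6 and 6.58 CPM against 2.48, 3.23, 34.8, 3.80 and 1.52 CPM and Prom1 at 69.8, 20.3 and 29.4 CPM against 22.3, 56.5, 15.4, 128 and 165 CPM.

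Of the 18 genes that the study named or marked for this pair of cell types, 13 were tested. Of these, 2, Krt19 and Cdx2, were lower (15.4%, against 1.39% of all tested genes). Vim, the mesenchymal filament vimentin, stood at 159.9, 263 and 375 CPM in CLiPs 1, 2 and 3 and at 626, 250.3, 249, 137 and 196 CPM in dediHeps 1 to 5 (log2 fold change -0.13 ± 0.49, FDR = 0.921). Hnf4a, the central transcription factor of hepatocytes, stood at 27.8, 68.3 and 331 CPM against 144, 237, 394, 239.5 and 287 CPM (log2 fold change -0.87 ± 0.68, FDR = 0.550). Both genes overlapped, and CLiP 3 was in the upper range of the dediHeps for Hnf4a with CLiPs 1 and 2 below all of them. Lamb1, a laminin chain, stood at 16.4, 7.01 and 0.506 CPM against 41.5, 44.7, 25.96, 8.03 and 40.6 CPM (log2 fold change -2.02 ± 0.83, FDR = 0.253), and S100a7a, a calcium-binding protein of epithelia, at 4.91, 1.58 and 1.52 CPM against 21.7, 11.3, 1.31, 15.6 and 41.6 CPM (log2 fold change -2.80 ± 0.95, FDR = 0.169). Neither passed the test, and each overlapped with at least 1 dediHep library. Mki67, the proliferation marker Ki-67, stood at 29.5, 86.4 and 67.8 CPM against 90.5, 186, 644, 234 and 320.0 CPM (log2 fold change -2.26 ± 0.64, FDR = 0.102). It did not overlap between the groups and missed the FDR threshold narrowly. This list was drawn up on these same samples and is no independent evidence of its direction.

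Cell cycle genes leaned toward lower values in CLiPs. Of 66 listed genes 61 were tested. Of these, 4 (Cdt1, Kif23, Kifc1 and Uhrf1) were lower, 6.56% against 1.39% of all tested genes, and none was higher. Below 0 lay 59 of the 61 fold changes (51.6% over all tested genes), and the median of the list was -1.48. Their summed level was 1885, 2252 and 4863 CPM in CLiPs 1, 2 and 3 and 3024, 4670.0, 10443, 4437 and 5108 CPM in dediHeps 1 to 5, so CLiP 3 reached the dediHep range and dediHep 3 stood far above the others. Cdt1, which licenses DNA replication, stood at 12.004, 28.5 and 11.6 CPM against 42.8, 94.2, 232, 111 and 63.9 CPM (log2 fold change -2.62 ± 0.62, FDR = 0.0567). Without CLiP 1 none of the 61 was called, and the calls of all 4 were also lost without dediHep 2. Top2a, a DNA topoisomerase of dividing cells, stood at 40.9, 85.9 and 285 CPM against 113, 366, 752, 400.5 and 427 CPM (log2 fold change -1.59 ± 0.69, FDR = 0.281) and overlapped. Among 27 inhibitors of the cycle and p53 targets 26 were tested and none was called, with a median of 0.03. Cdkn1a (p21) stood at 346, 413 and 571 CPM against 478, 365, 504, 584 and 414 CPM (log2 fold change -0.08 ± 0.28, FDR = 0.913).

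Hepatocyte functions divided by pathway and by CLiP library. Of 38 plasma protein genes 30 were tested and none was called in either direction, with 23 fold changes above 0 and a median of 0.74. With Xist status as a term 11 listed genes were called in either direction, where 805 of all 11567 tested genes were, and the median was 1.38. The list's median was 1.46 within the libraries with Xist, where 25 genes had a value, and 1.59 within those without. Their summed level was 8345, 8603 and 36815 CPM in CLiPs 1, 2 and 3 and 5584, 11849, 5842, 15114 and 14127 CPM in dediHeps 1 to 5. CLiP 3 stood above every other library, and CLiPs 1 and 2 lay within the dediHep range. Alb (albumin) stood at 249, 417 and 1729.5 CPM against 99.2, 661, 68.4, 817 and 1015 CPM (log2 fold change 0.59 ± 0.88, FDR = 0.770). Apoa1, the main protein of high-density lipoprotein, stood at 44.2, 52.9 and 1960.4 CPM against 337, 1122, 1069, 1088 and 1649 CPM (log2 fold change -0.62 ± 1.06, FDR = 0.806), with CLiPs 1 and 2 below every dediHep library and CLiP 3, near the UMI ceiling, above all of them. Serpina1a, an α1-antitrypsin gene with near-identical copies, stood at 234, 282 and 1995 CPM against 18.6, 243, 123, 549.6 and 339 CPM (log2 fold change 1.72 ± 0.91, FDR = 0.371), and its counts are uncertain. The CLiP 3 counts of Alb (3416) and Serpina1a (3941) were also near the UMI ceiling.

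Complement and coagulation genes gave 22 tested members of 37, with 2 higher (9.09%, against 1.65% of all tested genes), none lower and a median of 1.64. With Xist status as a term 11 listed genes were called in either direction, where 805 of all 11567 tested genes were. The list's median was 1.82 within the libraries with Xist, where 18 genes had a value, and 2.35 within those without. Serping1, the inhibitor of the C1 protease, had 25, 169 and 557 counts in CLiPs 1, 2 and 3 and 2 counts in dediHeps 1 to 5, a ratio of 495 with a 95% counting interval of 137 to 4096 (edgeR FDR = 0.00885). C4b, complement component 4, stood at 30.6, 12.2 and 113 CPM in the CLiPs and at 0, 2.69, 0, 2.11 and 1.52 CPM in the dediHeps (log2 fold change 5.33 ± 0.97, FDR = 0.0216). Both held without any 1 library, with CLiP 3 the highest. C3, the central complement protein, stood at 1458, 717 and 1954 CPM against 258, 924, 346, 1202 and 520.3 CPM (log2 fold change 1.08 ± 0.51, FDR = 0.314) and overlapped. Its count in CLiP 3, 3859, was close to the UMI ceiling. On the scale of the 49 libraries Serping1 averaged 1245 ± 67.6 CPM in fresh hepatocytes, 35.8 ± 14.1 CPM after 1 week and 2.75 ± 0.836 CPM after 2 weeks, against 107 ± 143 CPM in CLiPs and 0.163 ± 0.364 CPM in dediHeps.

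Drug metabolism moved in both directions. Of 54 cytochrome P450 genes 15 were tested, with a median of 0.02. Of these, 2 (13.3%) were higher and 1 (6.67%) lower, against 1.65% and 1.39% of all tested genes. The median of the family was 0.96 within the libraries without Xist, and 1.45 within those with Xist, where 11 genes had a value. Cyp4a12a, a fatty acid hydroxylase, stood at 79.7, 233 and 55.2 CPM in CLiPs 1, 2 and 3 and at 16.1, 5.92, 1.64, 0.422 and 14.2 CPM in dediHeps 1 to 5 (log2 fold change 4.04 ± 0.87, FDR = 0.0429). Its near-identical copy Cyp4a12b makes this count uncertain, and the call was lost without CLiP 1 or dediHep 2. Cyp3a13 went the other way, at 27.8, 27.8 and 73.9 CPM against 92.4, 217, 234, 361 and 192 CPM (log2 fold change -2.35 ± 0.53, FDR = 0.0495), and was lost without the same libraries. The liver enzymes of the study's list had their highest CLiP level in CLiP 3, with Cyp1a2 at 0, 0.226 and 17.7 CPM against 0, 0, 0.329, 0 and 4.06 CPM, Cyp3a11 at 1.09, 2.26 and 38.99 CPM against 4.34, 2.15, 4.27, 1.27 and 42.6 CPM and Cyp8b1 at 0.546, 0.226 and 25.3 CPM against 0, 0.538, 0.329, 1.69 and 0 CPM, and none passed the filter. Of 42 conjugation and transport genes 25 were tested. Of these, 5 (20%, against 1.39% of all tested genes) were lower and none was higher, with a median of -0.52. Ugt2b34, which attaches glucuronic acid to its substrates, stood at 82.4, 165 and 139.7 CPM against 575, 696, 1075, 626 and 755 CPM (log2 fold change -2.53 ± 0.36, FDR = 0.00947) and held without any 1 library. Gsta4, a glutathione S-transferase acting on lipid peroxidation products, stood at 58.4, 41.8 and 97.2 CPM against 148, 602, 469, 624 and 734 CPM (log2 fold change -2.97 ± 0.55, FDR = 0.0231) and was lost without CLiP 1. Gsta1, Gsta2 and Sult1d1 were the other 3 genes lower, all lost without CLiP 1, and the counts of the similar Gsta1 and Gsta2 are uncertain.

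The transcription factors and intermediary metabolism of hepatocytes gave few calls. Over all tested genes, 3.04% were called in either direction. Of 27 hepatocyte transcription factors 25 were tested and only Gata4 was lower, at 2.73, 1.36 and 1.52 CPM in CLiPs 1, 2 and 3 and 4.96, 3.23, 24.98, 16.1 and 15.7 CPM in dediHeps 1 to 5 (log2 fold change -2.82 ± 0.77, FDR = 0.0915), with the call lost without any of the CLiPs. Of 25 tested genes of cholesterol synthesis none was called, 22 lying below 0 with a median of -0.80. None of 24 tested genes of amino acid and urea metabolism or of 23 of fatty acid handling and oxidation was called, with medians of -0.16 and -0.09. Ldhb, a lactate dehydrogenase subunit, was the only one of 18 tested genes of glucose metabolism called, higher at 38.7, 16.5 and 20.3 CPM against 2.48, 0, 0, 0 and 1.52 CPM (log2 fold change 5.06 ± 0.95, FDR = 0.0242) and lost without CLiP 1. Among 16 tested genes of oxidative stress and metal binding Gpx3, a secreted glutathione peroxidase, was higher at 212, 172 and 1151 CPM against 9.30, 6.46, 0.657, 2.11 and 9.13 CPM (log2 fold change 6.57 ± 0.88, FDR = 0.00866), separated in every library. Ndrg1, a hypoxia-induced gene, was lower at 211, 194 and 232 CPM against 699, 1463, 1135, 989 and 952 CPM (log2 fold change -2.30 ± 0.31, FDR = 0.00866), the only call among 13 tested hypoxia genes. None of 20 genes of endoplasmic reticulum stress was called, and their median was -0.01. None of 15 mitochondrially encoded genes was called either, and their median was 0.01.

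Matrix and inflammatory genes were mixed. Over all tested genes, 1.65% were called higher and 1.39% lower. Of 49 mesenchymal and matrix genes 32 were tested, 2 (Col4a2 and Timp3) were higher and 1 (Itga2) was lower, with a median of -0.11. Timp3, an inhibitor of matrix proteases, stood at 457, 149 and 311 CPM in CLiPs 1, 2 and 3 and at 68.8, 14.5, 0.986, 6.34 and 8.11 CPM in dediHeps 1 to 5 (log2 fold change 3.98 ± 0.97, FDR = 0.0619), and was lost without CLiP 1, CLiP 3, dediHep 2, dediHep 4 or dediHep 5. Of 31 NF-κB targets and chemokines 22 were tested, 2 (Icam1 and Lcn2) were higher and 1 (Il33) was lower, with a median of -0.05. Il33, an alarmin of epithelial nuclei, stood at 1.09, 1.81 and 0.506 CPM against 18.6, 19.4, 52.3, 8.03 and 25.4 CPM (log2 fold change -4.29 ± 0.75, FDR = 0.0180) and was lost without CLiP 1. Of 24 oncofetal and imprinted genes 13 were tested and 3 (23.1%) were lower, Igf2bp1, Igf2bp3 and Tspan8, with a median of 0.06. Igf2bp1, an RNA-binding protein of fetal tissues, stood at 4.37, 4.52 and 6.08 CPM against 25.4, 69.4, 27.3, 42.2 and 77.1 CPM (log2 fold change -3.27 ± 0.53, FDR = 0.0150) and held without any 1 library. H19, an imprinted RNA, stood at 56.2, 75.1 and 1087 CPM against 56.4, 842, 1091, 1479.8 and 634 CPM (log2 fold change -1.02 ± 1.06, FDR = 0.661), low in CLiPs 1 and 2 and in dediHep 1.

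Markers of other liver cells were examined as a check of the labels. Of 16 keratin genes 6 were tested and 2 (Krt19 and Krt20) were lower, 33.3% against 1.39% of all tested genes, with a median of -0.79. Epithelial keratins were present in all 8 libraries, with Krt18 at 1305, 543 and 1424 CPM in CLiPs 1, 2 and 3 and at 737, 1275, 998, 1166 and 1089.9 CPM in dediHeps 1 to 5. Of 22 macrophage and leukocyte markers 1 passed the filter, Csf1r, the receptor of colony-stimulating factor 1, at 135, 68.3 and 153 CPM against 1.86, 3.77, 10.5, 6.76 and 0.507 CPM (log2 fold change 4.59 ± 0.67, FDR = 0.0108). Cd68, below the filter, had 19, 14 and 2 counts in CLiPs 1, 2 and 3 and 1, 1, 2, 1 and 1 in dediHeps 1 to 5. Adgre1 was at 0 counts in all libraries, and Ptprc and Clec4f had 3 counts and 1 count in all. Stellate cell and fibroblast markers summed to 33.3, 6.10 and 50.1 CPM in the CLiPs and 4.34, 2.69, 2.96, 3.38 and 1.52 CPM in the dediHeps, and none of the 21 passed the filter. None of 7 erythroid markers and 3 of 20 endothelial markers passed it, and none of these was called. Of 8 mesothelial markers 6 were tested and 2 (33.3%, against 1.39% of all tested genes) were lower. The 2 were Krt19, which bile duct cells also express, and Msln (mesothelin), the latter at 144, 171 and 89.6 CPM against 1163, 782, 643, 433 and 1196 CPM (log2 fold change -2.65 ± 0.43, FDR = 0.0150), separated in every library. Wt1, a defining factor of mesothelium, stood at 1.09, 0.904 and 10.6 CPM against 42.8, 3.23, 0, 35.1 and 0 CPM (log2 fold change -1.98 ± 1.62, FDR = 0.572) and was at 0 in dediHeps 3 and 5. The part of other cells in any result was not tested.

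The number of calls depended on single libraries. Without CLiP 1 only 109 genes were called (78 higher and 31 lower), of which 102 were among the 352, or 29.0% of them. Without CLiP 2 the number rose to 488 (278 higher and 210 lower) with 288 of the 352 kept, and without CLiP 3 it was 324 (178 higher and 146 lower) with 214 kept. None of the 352 changed sign when a library was left out. Of the 191 genes higher in CLiPs, 62 were called in all 3 fits that leave out a CLiP library, and of the 161 lower, 30 were. The calls of 37 higher and 34 lower genes were lost without CLiP 1 but kept without any other of the 8 libraries. No call was lost without CLiP 2 only, and those of 2 higher and 1 lower genes were lost without CLiP 3 only. On the dediHep side, 224 genes were called without dediHep 2, with 212 of the 352 kept, and 438 without dediHep 1, with 329 kept. Within the libraries that carried Xist 857 genes were called, with 222 of the 352 among them, and within those that did not, 685 were called, with 198 among them. A fit with Xist status as a term called 805, with 322 among them.

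**Figure D5:**
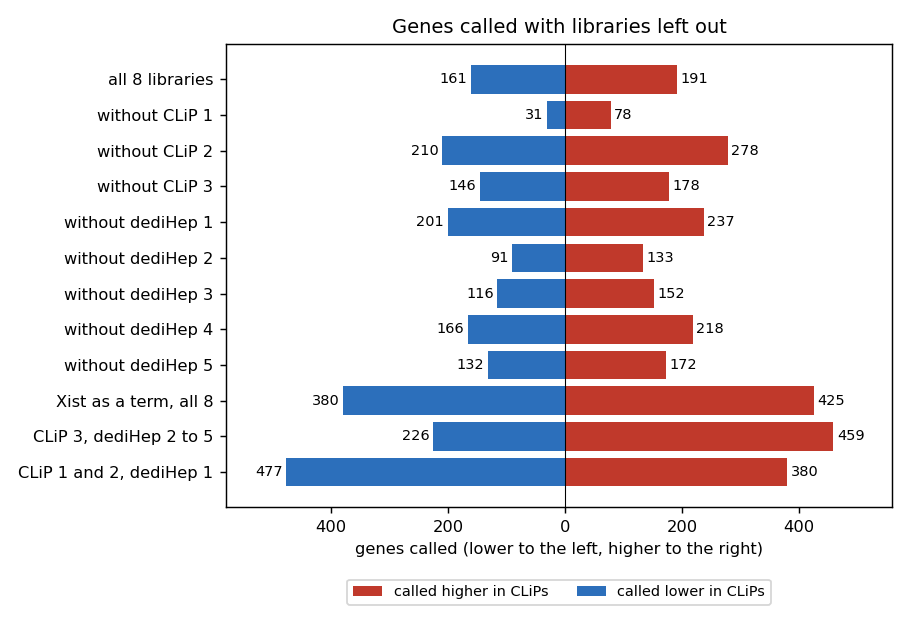
Numbers of genes called higher (red, to the right) and lower (blue, to the left) in CLiPs (x axis) in the comparison of all 8 libraries, with each library left out, with Xist status as a term and within the libraries without or with Xist (y axis). Leaving out CLiP 1 brings the numbers down to 78 and 31, and leaving out CLiP 2 raises them to 278 and 210.

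The CLiP libraries also differed from each other in what they expressed. The genes with the largest ratio of 1 CLiP library to the next were Scnn1a, Plet1, Ctla2a, Lad1 and Fut11 in CLiP 1, Dtx3, Ndufab1-ps, Cyp4a12b, Ppp4c and Spred2 in CLiP 2, and Apoa4, Apoc3, Ddx3y, Fosb and Hamp in CLiP 3. These were picked for that ratio, which is a description and no test. Scnn1a, a subunit of the epithelial sodium channel, stood at 46.4, 4.97 and 5.06 CPM in CLiPs 1, 2 and 3 and at 1.24, 2.15, 4.27, 1.69 and 5.07 CPM in dediHeps 1 to 5. Dtx3, a ubiquitin ligase, stood at 9.82, 127 and 5.06 CPM against 72.5, 25.3, 10.5, 10.6 and 8.62 CPM. Hamp, the iron hormone hepcidin, stood at 0.546, 0 and 262 CPM against 0, 8.61, 3.94, 269.9 and 2.03 CPM. High levels of Hamp were thus found in 1 library of each group, CLiP 3 and dediHep 4. Fosb, an immediate early transcription factor, stood at 0, 0 and 67.8 CPM against 117, 32.8, 26.9, 41.4 and 12.7 CPM, and only CLiPs 1 and 2 were without it. Of the 15 genes, Plet1 was also called higher in CLiPs, at 133, 27.4 and 23.8 CPM against 0.620, 2.15, 9.86, 7.60 and 0.507 CPM (log2 fold change 3.79 ± 0.88, FDR = 0.0539), and was lost without CLiP 1 or dediHep 2.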

How the data were processed

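RNA of 49 libraries was sequenced from its 3′ ends by CEL-seq2, and the authors deposited raw UMI counts per gene with no normalization; the submitters' processing notes name bcl2fastq 2.20, Bowtie2 2.3.1, HTSeq 0.6.0 and the GRCm38 build. The 3 CLiP and 5 dediHep columns were matched to samples by their labels, and 0 columns were left out. Genes were kept by filterByExpr (minimum count 10, minimum total 15), scaled by TMM and tested in edgeR 4.0.16 (quasi-likelihood F-test, Benjamini-Hochberg adjustment) in R 4.3.3 with the 2 groups as the only term. As in the study's methods, calls needed an FDR below 0.1 and a log2 fold change beyond 2 in size. DESeq2 1.42.0, other filters, scalings and left-out libraries were tried as alternatives. On simulated counts of this comparison (11261 genes), 90 of 99 tested genes changed by 3 on the log2 scale and 99 of 99 changed by 5 were recovered with the right sign, and 6 of 11063 unchanged genes were called. The simulation drew each gene independently, changed only genes above a minimum level and had no UMI ceiling. It also had no deviations shared by the genes of a library, so it does not give the error rate in the real libraries. Folds against a group with 0 counts were computed against 3 counts over the group, and ratios with 1 to 3 counts carry a 95% binomial counting interval. Intervals cover counting error only.

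The comparison and gene lists were chosen with earlier results of these data known. Genes were named if the study named them for this comparison, if among the 10 of smallest p in each direction, if a list marked them or they were among its 6 called members of smallest p in each direction, or if among the 5 most particular to a CLiP library; predicted genes were skipped. Others given were singled out after their values were seen. Some items are not reported here. Columns of levels in the other conditions share 1 scale over all 49 libraries. Promoter sequences came from RefSeq. Library totals ran from 1631842 to 3872936 counts and were not equalized.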

Additional observations from a re-analysis of the deposited data

Results flagged for a closer look

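In the 5 dediHep libraries, 1 library lay far from the other 4 by Dixon's ratio in 30 of the 116 genes whose levels are given above. For normally distributed values chance alone gives this in about 1 in 20 groups. The CPM were not transformed and some of the genes rested on 3 counts or fewer, so that rate need not hold here. No cause was tested. The CLiP group, with 3 libraries, is too small for this comparison.

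The library dediHep 1 was the one apart in 11 genes, all upward. Besides Xist at 457 CPM, these included the YAP targets Ccn1 at 1537 CPM and Ccn2 at 699 CPM, the filament gene Vim at 626 CPM, B2m at 683 CPM, the immediate early genes Fos at 606 CPM and Fosb at 117 CPM, Tjp1 at 172 CPM, Dtx3 at 72.5 CPM, Timp3 at 68.8 CPM and Axin2 at 1.86 CPM. It was also the only dediHep library with Xist, as CLiPs 1 and 2 were among the CLiPs.

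The library dediHep 3 was apart in 5 genes, with Krt19 at 545 CPM, Vsig1 at 482 CPM, Ocln at 389 CPM, Ddx3y at 197 CPM and Epcam at 34.8 CPM. In dediHep 4, Hamp stood at 269.9 CPM and Ifitm3 at 16.1 CPM, while Rsad2 at 1.27 CPM, Serping1 at 0.845 CPM, Gpnmb and Myl9 at 0.422 CPM each and Kif1a at 0 CPM rested on 3 counts or fewer. In dediHep 5, Bmp7 stood at 129 CPM, Dhh at 69.0 CPM, Mecom at 60.9 CPM, Cyp3a11 at 42.6 CPM, Isg15 at 5.07 CPM, Cyp1a2 at 4.06 CPM and Cldn6 at 0.507 CPM. Of these genes, Krt19, Vsig1, Mecom, Bmp7 and Dhh were lower in every CLiP library than in every dediHep library, whichever dediHep library stood out.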

How the results depend on the processing

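Depth and the small number of CLiP libraries limit these comparisons, and the cause of no change given here was tested. Of the 352 genes called (191 higher and 161 lower), leaving out 1 library gave 109 to 488 (78 to 278 higher and 31 to 210 lower), and of the 21 interferon-stimulated genes 11 to 31. DESeq2 called 537 (276 lower), no filter on low counts 714 (460 higher, 254 lower and 35 interferon genes), a filter at 0.5 CPM in 1 library 597 (383 higher and 34 interferon genes) and a single fit of all 49 libraries 1169 (667 higher, 502 lower and 40 interferon genes). An FDR under 0.05 left 216 (85 lower), any fold gave 543 (329 higher), and an unadjusted p under 0.05 gave 613 (311 higher and 302 lower). Chosen after seeing the data, Xist status as a term gave 805 (425 higher and 380 lower), the libraries without Xist 685 (459 higher and 11 interferon genes) and those with Xist 857 (380 higher, 477 lower and 35 interferon genes). Size factors by RLE gave 351 calls, correction for UMI collisions 360 and thinning to equal depth 345. With the replicate block, 278 genes were called, of which 206 were among the 352. The numbers do not pair the libraries, since deviations of same-numbered CLiP and dediHep libraries correlated at 0.01, -0.14 and -0.01. Differently numbered pairs ran from -0.57 (CLiP 3 with dediHep 1) to 0.63 (CLiP 2 with dediHep 1), so deviations were not unrelated across the groups. Of the 203 genes followed singly, none that was called with all 8 libraries changed sign in any of these settings where it was tested. Sign changes of uncalled genes were not counted. Upk3b, for example, had a log2 fold change of -5.07 within the libraries with Xist and 3.38 within those without. Without CLiP 1, 41 of the 203 lost their call, without CLiP 2 5 of 202 and without CLiP 3 19. A junction gene count of 2 ranged from 1 to 17 over all these settings.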

Other observations

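Set on 1 scale over the 49 libraries, genes that separated CLiPs from dediHeps fell into different places among the 16 conditions, given here as means ± SD with no test. Kif1a averaged 0 CPM in fresh hepatocytes, 31.7 ± 26.6 CPM after 4 days in culture, 72.2 ± 47.4 CPM after 1 week and 216 ± 62.3 CPM after 2 weeks, against 333 ± 226 CPM in CLiPs and 1.60 ± 0.904 CPM in dediHeps. Gpx3 had the same order, with 108 ± 128 CPM after 1 week, 279 ± 1.67 CPM after 2 weeks, 493 ± 534 CPM in CLiPs and 5.13 ± 3.64 CPM in dediHeps. Both were thus high in CLiPs and in hepatocytes kept for 1 or 2 weeks, and low in the dediHeps.

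Ehf and Mmp7 were near 0 in all hepatocyte cultures and high in CLiPs and organoids. Ehf averaged 165 ± 58.1 CPM in CLiPs, 554 ± 220.4 CPM in spherical organoids grown from dediHeps, 152 ± 51.6 CPM in budding organoids of intestinal stem cells and 3.38 ± 5.01 CPM in hepatocytes after 2 weeks. Mmp7 averaged 104 ± 74.02 CPM in CLiPs, 1559 ± 349.9 CPM in the dediHep spherical organoids and 1.27 ± 1.88 CPM in hepatocytes after 2 weeks. Of the genes low in CLiPs, Mecom averaged 3.05 ± 2.14 CPM after 1 week and 12.1 ± 8.69 CPM after 2 weeks, 39.5 ± 10.4 CPM in dediHeps and 147 ± 62.1 CPM in their spherical organoids. Vsig1 averaged 219 ± 136 CPM in dediHeps, 166 ± 23.2 CPM in their spherical organoids and 0.965 ± 1.19 CPM in hepatocytes after 2 weeks. Fchsd1 had its highest mean of the 16 conditions in CLiPs, with 215 ± 103 CPM against 28.3 ± 8.15 CPM in hepatocytes after 1 day.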
